A study of Homo sapiens with 20 samples.

Results

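The mRNA-to-chromatin ratio of a gene sets its level in total mRNA-seq against its level in RNA bound to chromatin (chrRNA-seq). Its change after Dicer knockdown was taken per gene as the log2 fold change of shDicer over wt in mRNA-seq minus the same fold change in chrRNA-seq, which is the interaction of assay and genotype. The members are the 12763 genes with 10 or more estimated counts in each of 10 libraries, of 57087 genes in all. Of the 33566 genes that reached 10 counts in some library, 15724 fell short in an mRNA-seq library only, 121 in a chrRNA-seq library only and 4958 in both. Genes that are nascent but scarce as mRNA are therefore mostly outside the set.

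Dicer cuts precursor hairpins into mature microRNAs, which guide Argonaute proteins to partly complementary sites, mostly in 3′ UTRs, where deadenylation and decapping follow. Loss of Dicer is therefore known to raise mRNAs after transcription, while RNA on chromatin is enriched in transcripts that are still being made or not yet released. A gene whose transcription changes moves in both assays. A gene whose ratio changes moves in one assay by more than in the other.

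HEK293 is a human embryonic kidney line, and HEK293T a derivative that carries the SV40 large T antigen. In mRNA-seq, the 3 wt libraries are labelled HEK293T and the 3 knockdown libraries HEK293 2B with a shRNA against Dicer, both under 3 µg/ml doxycycline for 7 days. In chrRNA-seq, the 2 wt and the 2 shDicer libraries are labelled HEK293, and the shDicer cells had 3 µg/ml doxycycline for 72 h. Doxycycline for the wt cells of chrRNA-seq is not given in the sources used here. The paper's methods list inducible HEK293T-REx lines with the Dicer shRNA, one of them a clone that also expresses a tagged Dicer, and which of these was sequenced is not given in the sources used here. No line with a scrambled shRNA was used here. The library kits differ between the assays, and the mRNA-seq labels name polyA RNA where the methods describe depletion of ribosomal RNA. Knockdown, line, induction time and kit cannot be told apart in the ratio change. The labels do not say that replicates are separate cultures, so p-values measure the spread between these samples.

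Each mRNA-seq library held 10216430 to 17215978 estimated counts, and each chrRNA-seq library 17484067 to 20453521. Library 1 of shDicer mRNA-seq stood apart in base composition, since its deviation from the mean of its assay followed GC content with a Spearman rho of 0.51 across genes, against −0.24 to 0.19 in the other 9. The RNAs 7SL and 7SK took 10.5 to 11.8% of the counts in wt and 14.2 to 18.4% in shDicer mRNA-seq. Of 8 HEK293 markers, 6 were members. PAX2, a kidney transcription factor, averaged 0.185 CPM in wt and 0.112 CPM in shDicer mRNA-seq (without TMM factors), below the level of 3 counts, and 10.6 and 20.9 CPM on chromatin. On the same scale, some markers moved with the knockdown in mRNA-seq, with NEFL (neurofilament light chain) at 16.6 and 450 CPM and KRT18 at 29.3 and 102 CPM. KRT8 had 8.82 and 25.2 CPM and NEFM 6.27 and 0.409 CPM. The rest changed less in mRNA-seq, with VIM at 405.5 and 421.4 CPM, LIN28B at 196.6 and 226.0 CPM and EYA1 at 9.80 and 12.2 CPM. None of 5 haematopoietic and 3 hepatocyte markers was a member. The summed level of the haematopoietic markers was 0.0385 to 0.937 CPM in mRNA-seq, and on chromatin 9.13 to 9.24 CPM in wt and 2.62 to 3.07 CPM in shDicer cells. Of 5 fibroblast markers, PDGFRA was a member, with mRNA called higher by 1.10 and a ratio change of 0.65 that was not called. The part of other cell types in the results was not tested. In bulk RNA, fewer cells with a transcript and less RNA per cell cannot be told apart.

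DICER1 itself checks the labels in mRNA-seq, but not those in chrRNA-seq, where its change was not called. DICER1 (ENSG00000100697, chr14:95086228-95158010, GRCh38) had 309, 316 and 285 CPM (counts scaled to library size with TMM factors) in wt and 102, 119 and 112 CPM in shDicer mRNA-seq. On chromatin it had 97.2 and 99.9 CPM in wt and 91.1 and 90.0 CPM in shDicer cells. The mRNA groups were far apart, and the chromatin values, lower in both shDicer libraries, were not called (adjusted p = 0.284). Its mRNA fell by 1.45 on the log2 scale (SE 0.0749), chromatin RNA changed by −0.12, and the ratio change was −1.33 (SE 0.117, adjusted p = 1.53e-05).

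Across all members, 834 genes had a higher ratio in shDicer cells and 510 a lower one at an adjusted p under 0.005, or 6.53% and 4% of the genes tested. The median ratio change over all members was 0.06, with quartiles of −0.26 and 0.40, and the median standard error of a gene was 0.175. The split by direction rested on the scaling of libraries, since edgeR with the size factors of DESeq2 gave 591 genes higher and 710 lower. The counts also rested on single libraries. Without wt chrRNA-seq library 1 they fell to 255 and 138, and without the GC-skewed library 1 of shDicer mRNA-seq they came to 1166 and 616. Every one of the 1344 called genes kept its sign in each of these refits.

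Genes whose mRNA changed beyond their chromatin RNA made up most of the calls. In 673 genes (5.27%), both the mRNA and the ratio were called higher. The median mRNA change of these genes was 1.28 and their median chromatin change 0.17. For 485 of them the chromatin change was not called, for 164 it was called in the same direction and for 24 in the opposite one. In 408 genes (3.2%) both were called lower, with medians of −0.89 in mRNA and −0.05 on chromatin. Of these, chromatin was not called in 299, called lower in 76 and called higher in 33. The chromatin change lay within 0.25 of 0 in 273 of the 673 and in 196 of the 408 genes. These shares follow in part from how the class is defined and carry no test.

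A smaller class moved on chromatin while mRNA followed less. There the ratio was higher in 136 genes (1.07%), with a median chromatin change of −0.77 and a median mRNA change of 0.11, and lower in 96 genes (0.752%), with medians of 1.08 and −0.05. In the remaining 25 genes with a higher ratio (0.196%) and 6 with a lower one (0.047%), neither contrast was called on its own. As background, 46.1% of members were called in mRNA-seq alone and 26.3% in chrRNA-seq alone.

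**Figure D1:**
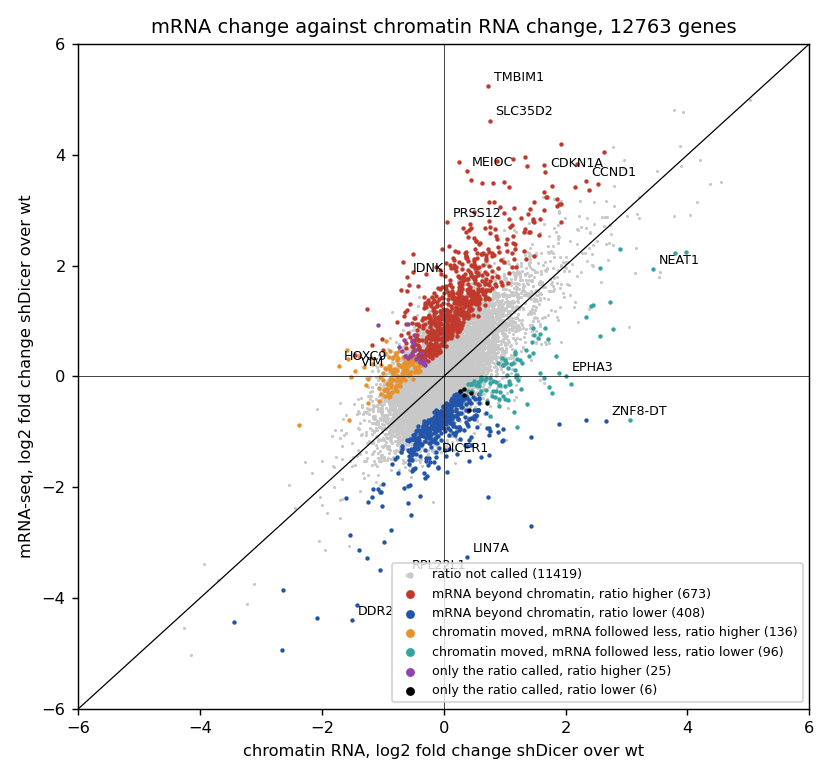
Each point is 1 of 12763 genes, with the log2 fold change of shDicer over wt in chrRNA-seq on the x axis and in mRNA-seq on the y axis. The diagonal marks equal change, and colours mark the classes of genes called for the ratio (adjusted p under 0.005). Red points such as TMBIM1 lie above the diagonal, blue points such as RPL22L1 below it, and 1 gene lies outside the axes.

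The largest rise among well-measured genes was that of TMBIM1, which encodes a multispanning protein of lysosomal and endosomal membranes. TMBIM1 (chr2:218274197-218292586) had 2.29, 1.75 and 2.27 CPM in wt and 79.1, 77.3 and 82.0 CPM in shDicer mRNA-seq. On chromatin it had 34.3 and 31.04 CPM in wt and 53.5 and 55.0 CPM in shDicer cells. Its groups did not overlap in either assay, but mRNA rose 37.7-fold and chromatin RNA 1.66-fold, for a ratio change of 4.50 (SE 0.166, adjusted p = 7.29e-09). SLC35D2, a nucleotide sugar transporter of the Golgi, followed with a ratio change of 3.86 (SE 0.247). Its mRNA went from 1.20 ± 0.273 CPM to 29.1 ± 2.70 CPM (SD, n = 3 each). SLC35D2 shares 44.9% of its 31-nt subsequences with other transcripts and lies on chromosome 9, which is described further on.

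MEIOC, a partner of the RNA helicase YTHDC2 in meiosis, was transcribed in wt cells but scarce as mRNA. It had 35.9 and 37.1 CPM on wt chromatin against 5.58, 7.32 and 5.29 CPM in wt mRNA-seq, and reached 72.6, 82.5 and 83.3 CPM in shDicer mRNA-seq. Chromatin levels in shDicer cells, 48.3 and 46.6 CPM, were above wt but the change of 0.38 was not called (adjusted p = 0.0153). The ratio change was 3.33 (SE 0.168, adjusted p = 1.43e-07). SCIN, a calcium-dependent actin-severing protein, had a ratio change of 3.00, with mRNA up 14.7-fold and chromatin RNA up 1.84-fold. The zinc finger gene ZNF813 and the transcribed pseudogene DPY19L2P2 complete the 6 largest rises, at 3.63 and 2.86. All 6 were called with each library left out in turn.

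At the other end stood LIN7A, a PDZ scaffold protein of cell junctions and synapses. It had 31.7, 29.5 and 35.6 CPM in wt and 3.06, 2.67 and 4.14 CPM in shDicer mRNA-seq, while chromatin held only 0.659 to 1.45 CPM in all 4 libraries. The ratio change of LIN7A was −3.65 (SE 0.404, adjusted p = 7.61e-05). RPL22L1, a paralogue of the ribosomal protein RPL22, was the most abundant gene of this group. Its mRNA went from 357, 398 and 429 CPM to 31.2, 34.7 and 33.1 CPM, and on chromatin from 29.3 and 30.6 to 18.7 and 20.5 CPM. Both assays were lower without overlap, by 3.58 and 0.61 on the log2 scale, and the ratio change was −2.97 (SE 0.137, adjusted p = 6.39e-08). In wt mRNA-seq, 73.5% of its counts lay on protein-coding transcripts, and in shDicer cells 46.8%.

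DDR2, a receptor tyrosine kinase for collagen, fell from 58.2 ± 6.55 CPM to 2.75 ± 0.392 CPM in mRNA-seq and from 11.4 ± 0.410 to 4.01 ± 0.172 CPM on chromatin, where n was 2. The ratio change of DDR2 was −2.89. DMC1, the recombinase of meiotic strand exchange, had −2.71, with mRNA lower by 4.13 and chromatin RNA by 1.43 on the log2 scale. In both genes, most of the fall in mRNA was not matched on chromatin. The other 2 of the 6 smallest values were the divergent transcript ZNF8-DT and the variant U1 small nuclear RNA RNVU1-34, which moved in opposite directions in the assays.

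Among genes with chromatin within 0.25 of no change, PRSS12 (neurotrypsin, a secreted serine protease) had 4.78, 5.79 and 6.17 CPM in wt and 35.2, 36.5 and 42.4 CPM in shDicer mRNA-seq. Its chromatin values were 28.7 and 34.5 CPM in wt and 33.5 and 32.1 CPM in shDicer cells, and these overlapped. The mRNA change of PRSS12 was 2.78 and the chromatin change 0.05. Behind ZNF813 and PRSS12 came CXCL16, a transmembrane chemokine, with an mRNA change of 2.35 against 0.08 on chromatin. PLXNC1, a semaphorin receptor, had 2.30 against −0.03, LHX4, a LIM homeobox transcription factor, 2.27 against 0.18, and CYBRD1, a ferric reductase of iron uptake, 2.14 against 0.15.

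Of the falls with flat chromatin, LOXL3, a lysyl oxidase that crosslinks collagen, went from 10.4 ± 0.814 to 3.14 ± 0.191 CPM in mRNA-seq at 23.9 ± 0.224 and 24.8 ± 2.96 CPM on chromatin. SLC7A11, the light chain of the cystine-glutamate exchanger, had 132, 148 and 182 CPM in wt and 50.5, 43.0 and 52.3 CPM in shDicer mRNA-seq. Its chromatin levels overlapped, at 41.0 and 41.3 CPM in wt and 34.5 and 42.3 CPM in shDicer cells. The ratio change of SLC7A11 was −1.56 (SE 0.189, adjusted p = 0.000131). DICER1 was also in this group, with C2orf76, the methionine salvage enzyme APIP (mRNA −1.36) and the glutamate transporter SLC1A6 (mRNA −1.33). LOXL3 and APIP were not called when only protein-coding transcripts were summed (adjusted p = 0.00897 and 0.0572). SLC1A6 was called without replicate 2 of wt mRNA-seq or replicate 1 of shDicer mRNA-seq and in no other leave-one-out fit.

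The reverse pattern was led by HOXC9, a homeobox gene of body axis patterning. On chromatin HOXC9 fell from 30.7 and 26.4 CPM to 8.58 and 8.70 CPM, while mRNA-seq had 5.08, 6.34 and 4.91 CPM in wt and 7.70, 5.14 and 5.95 CPM in shDicer cells. The chromatin groups were separate and the mRNA groups overlapped, and the ratio change was 1.92 (SE 0.241, adjusted p = 0.000164). VIM (vimentin, an intermediate filament protein) fell by 1.45 on chromatin, with mRNA at 498 ± 53.4 and 532 ± 81.8 CPM. RNPEPL1, an aminopeptidase-like gene, had a ratio change of 1.48 (adjusted p = 0.00482), which was lost in 9 of 10 leave-one-out fits and after removal of the GC trend (0.92, adjusted p = 0.0115).

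EPHA3, an ephrin receptor, rose on chromatin from 6.34 and 5.73 CPM to 23.2 and 25.5 CPM. Its mRNA had 34.8, 32.0 and 44.7 CPM in wt and 34.0, 41.4 and 36.4 CPM in shDicer cells, with overlap. The ratio change of EPHA3 was −2.001 (SE 0.212, adjusted p = 5.79e-05). TRPS1, a GATA-type transcriptional repressor, had a chromatin change of 1.90 and an mRNA change of 0.07. A small nucleolar RNA annotated as U3 (ENSG00000212195) had 1.73 and −0.19, and its call was lost without any 1 of the 4 chrRNA-seq libraries. This U3 gene overlaps TEX14 on its own strand, and reads of both cannot be told apart where they overlap.

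Opposite moves, with both contrasts called, were found in 23 well-measured genes with mRNA up and chromatin down and in 16 with the reverse. IDNK, a gluconokinase, had 2.39, 2.19 and 2.89 CPM in wt and 8.49, 8.38 and 8.81 CPM in shDicer mRNA-seq, but 20.5 and 18.2 CPM in wt and 13.0 and 12.4 CPM in shDicer cells on chromatin. SUSD1, a sushi domain protein, rose in mRNA-seq from 10.5 ± 0.158 to 26.2 ± 1.02 CPM and fell on chromatin from 37.5 ± 2.70 to 25.4 ± 2.15 CPM. The antisense transcript ZNF503-AS2 rose by 1.56 in mRNA-seq and changed by −0.70 on chromatin. In the reverse direction, ZNF8-DT had 3.78, 3.61 and 3.90 CPM in wt and 2.17, 2.19 and 2.11 CPM in shDicer mRNA-seq, against 6.68 and 6.39 CPM in wt and 45.3 and 37.8 CPM in shDicer cells on chromatin. LINC02985, a long non-coding RNA, had −1.01 and 0.89.

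Position along the genome was not used to choose genes, and it set the members apart. On chromosome 9, 150 of 528 members (28.4%) had a higher ratio and 3 a lower one, against 684 (5.59%) and 507 of the 12235 members elsewhere. The median ratio change was 0.56 on chromosome 9 and 0.04 elsewhere. In windows of 50 neighbouring members, the 10 windows of chromosome 9 had median ratio changes from 0.16 to 0.82, and 6 of them were above the highest of 233 windows elsewhere (0.49). The next highest chromosomes by median were 19, 22 and 10, at 0.30, 0.28 and 0.26. After removal of the GC and length trend, chromosome 9 stood at 0.47 and chromosome 10 at 0.24, whereas chromosomes 19 and 22 came to 0.01.

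Both assays took part on chromosome 9, with a median mRNA change of 0.26 and a median chromatin change of −0.28. Relative to the other chromosomes and to wt, the 3 shDicer mRNA-seq libraries stood at 0.29, 0.21 and 0.22 and the 2 shDicer chrRNA-seq libraries at −0.26 and −0.28 on the log2 scale. The wt libraries stayed between −0.01 and 0.02. Of the 150 genes, 95 were in the class with mRNA beyond chromatin and 47 in the class where chromatin moved. SLC35D2, IDNK and SUSD1 are among the genes of chromosome 9 named above. The wt libraries of the assays carry different line names, so a regional difference between lines and an effect of the knockdown cannot be told apart. Without chromosome 9, the classes with a higher ratio held 578 and 89 genes.

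Over all 243 windows, the SD of the medians was 0.22 for the ratio, 0.31 for mRNA and 0.26 for chromatin. The window medians of mRNA and chromatin changes had a Pearson r of 0.69 (243 windows, which share libraries and neighbouring genes). Regional changes present in both assays were thus partly removed in the ratio. The lowest windows lay on chromosomes 1 and 12, at −0.43 and −0.42.

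GC content was the other property that ran with the ratio. Among 11386 protein-coding members, the ratio change had a Spearman rho of 0.43 with the GC content of the transcript, the mRNA change 0.23 and the chromatin change −0.12 (across genes, which are not independent replicates). Genes with a higher ratio had a median GC content of 52.4%, genes with a lower ratio 41.6% and the rest 47.4%. Over 5 classes of equal size from low to high GC content, the median ratio change went from −0.16 to 0.45. The share of genes with a higher ratio went from 2.81% to 10.2%, and the share with a lower ratio from 8.08% to 0.22%.

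Without the skewed library 1 of shDicer mRNA-seq, rho for the ratio was 0.29. The wt mRNA-seq libraries had deviations with rho between −0.24 and −0.18, the other 2 shDicer mRNA-seq libraries 0.04 and −0.02, and the 2 shDicer chrRNA-seq libraries 0.03 and −0.23. The part of base composition in the ratio change was not tested beyond removing its trend. That removal also took out a trend on transcript length, here and where only the GC trend is named. It gave 1077 genes with a higher and 805 with a lower ratio, of which 1138 were among the 1344 called before. The 3′ UTR was longer in genes with a lower ratio, with a median of 1584 bases against 925 bases in genes with a higher ratio and 1046 in the rest. Spearman rho of the ratio with 3′ UTR length was −0.13, and −0.04 with the trends removed. The 3′ UTR is part of the transcript length that was removed, so these values do not separate GC content from length.

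By type of gene, small nuclear RNAs stood lowest. Of 54 members annotated as snRNA, 17 (31.5%) had a lower ratio and 0 a higher one (edgeR), with a median of −0.99. Of 84 small nucleolar RNAs, 15 were lower and 1 higher, with a median of −0.67. Long non-coding RNAs (1038 members) had a median of −0.13, with 35 higher and 46 lower. Protein-coding genes had a median of 0.08. Over all members, 4% had a lower ratio and 6.53% a higher one. Many small nuclear RNAs have near-identical copies, so their counts can be split between genes.

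The microRNA families of HEK293 cells were examined through their seeds, bases 2 to 8 of the mature sequence, which pair with the 3′ UTR. Mature sequences are from RefSeq (GRCh38.p14), with the seed in capitals. The first 4 share one seed and form the miR-17 family, and the others are families set beside it, of which miR-122 is known from liver and served as a family of another tissue.
hsa-miR-17-5p (chr13:91350618-91350640, plus strand): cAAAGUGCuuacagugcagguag
hsa-miR-20a-5p (chr13:91351072-91351094, plus strand): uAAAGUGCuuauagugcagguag
hsa-miR-93-5p (chr7:100093815-100093837, minus strand): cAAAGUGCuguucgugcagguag
hsa-miR-106b-5p (chr7:100094043-100094063, minus strand): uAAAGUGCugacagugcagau
hsa-miR-19b-3p (chr13:91351245-91351267, plus strand): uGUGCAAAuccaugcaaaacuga
hsa-let-7a-5p (chr9:94175962-94175983, plus strand): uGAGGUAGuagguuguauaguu
hsa-miR-16-5p (chr3:160404754-160404775, plus strand): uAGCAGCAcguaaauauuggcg
hsa-miR-122-5p (chr18:58451088-58451109, plus strand): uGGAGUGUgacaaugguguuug

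The 8-base site of the miR-17 family, GCACTTTA on the transcript strand, is present in the annotated 3′ UTR of 532 of 11362 members with a UTR (4.68%). These genes had a median ratio change of 0.18 against 0.08 in genes without the site. A higher ratio was called in 14.9% of them and in 6.64% of the genes without, and a lower one in 2.44% and 3.83%. The difference of medians, 0.11, ranged from 0.04 to 0.15 over the 6 pairings of shDicer libraries, and it was 0.16 for the mRNA change and 0.09 for the chromatin change. In UTRs up to 563 bases, from there to 1809 bases and longer, it was 0.44, 0.16 and 0.14. In the same length classes the mRNA difference was 0.48, 0.20 and 0.13 and the chromatin difference 0.03, 0.08 and 0.03. The 34 genes with a site in a short UTR are few. A match is a description of letters, and the shorter match GCACTTT, without the final A, gave a difference of −0.01.

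For let-7 (CTACCTCA, 427 genes), the difference was −0.01, with 0.10, 0.10 and 0.04 in the length classes. For miR-19b (TTTGCACA, 709 genes) it was 0.00, with 0.32, 0.11 and 0.04 in the length classes. The difference for miR-16 (TGCTGCTA, 503 genes) was −0.09, with 0.03, −0.05 and −0.03 in the length classes. It was 0.06 for miR-122 (ACACTCCA, 321 genes), with 0.28, 0.18 and 0.09 in the length classes. In middle UTRs miR-122 was thus above miR-17, at 0.18 against 0.16, and at 0.18 against 0.15 after removal of the GC trend. Of the 20 families with a sequence, miR-17 had the highest difference and miR-122 the second. The other 18 lay between −0.14 and 0.00. After removal of the GC trend, miR-17 (0.14) was followed by miR-19b (0.07) and miR-122 (0.05).

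Of 16 fixed miR-17 family targets, 4 had a higher ratio and 0 a lower one, beside 6.53% and 4% of all members. Their median was 0.35 against 0.06 over all members. CDKN1A encodes the cyclin-dependent kinase inhibitor p21, ZBTB4 a methyl-CpG binding transcription factor, CCND1 cyclin D1 and STAT3 a signal transducer of cytokine receptors. Their 3′ UTR stretches around a match to the seed are shown with the matched bases in capitals (GENCODE 44, GRCh38), because these 4 genes carry the count. Of these 4, ZBTB4 holds the 8-base site, and CDKN1A, CCND1 and STAT3 hold the 7-base match only. LHX4 and CYBRD1, shown as well, and SUSD1, all named above, hold the 8-base site. All genes shown had a higher ratio, and matches in genes with a lower ratio are not shown. Over all 532 genes with the 8-base site, 79 had a higher ratio and 13 a lower one.
CDKN1A (chr6:36686246-36686275, plus strand): tcatttgagaagtaaacagatgGCACTTTg
CDKN1A (chr6:36686926-36686955, plus strand): ccccatccctccccagttcattGCACTTTg
ZBTB4 (chr17:7460073-7460102, minus strand): attcccacaaatcttgtttctgGCACTTTA
CCND1 (chr11:69652274-69652303, plus strand): tctaaaaccattccatttccaaGCACTTTc
STAT3 (chr17:42315290-42315319, minus strand): atagctacatactcctggcattGCACTTTt
LHX4 (chr1:180278190-180278219, plus strand): aggaggctcatttttaaacactGCACTTTA
CYBRD1 (chr2:171555675-171555704, plus strand): tatgctccaaacactcctctaaGCACTTTA

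CDKN1A had 4.88, 4.92 and 6.92 CPM in wt and 77.5, 69.3 and 66.6 CPM in shDicer mRNA-seq. On chromatin it had 2.42 and 2.08 CPM in wt and 6.97 and 7.25 CPM in shDicer cells. It was higher in shDicer cells in both assays without overlap, by 3.69 and 1.66, and the ratio change of 2.03 (SE 0.245, adjusted p = 0.000129) was the part beyond chromatin. ZBTB4 went from 3.66 ± 0.653 to 15.8 ± 1.17 CPM in mRNA-seq and from 12.6 ± 0.989 to 17.7 ± 2.18 CPM on chromatin, where the change of 0.49 was not called. Its ratio change was 1.62 (SE 0.219, adjusted p = 0.000274).

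CCND1 rose by 3.53 in mRNA-seq and by 2.33 on chromatin, and its ratio change of 1.20 was lost without any 1 of the 4 chrRNA-seq libraries, at 1.14 to 1.26. STAT3 had 49.6, 50.5 and 43.2 CPM in wt and 73.8, 75.6 and 78.3 CPM in shDicer mRNA-seq at a chromatin change of 0.05. Its ratio change of 0.62 was called in 2 of 10 leave-one-out fits, and was lost in edgeR with the size factors of DESeq2 (0.53). Of the 12 miR-15/16 targets, CCND1 and the receptor FGFR1 had a higher ratio, and the list's median was 0.07. Of 19 let-7 targets, NR6A1 had a higher ratio (0.98), LIN28B (−0.65) and IGF2BP2 (−0.77) a lower one, and the median was 0.02. Beside the counts of both lists, 6.53% of all members had a higher ratio and 4% a lower one. NR6A1 lies on chromosome 9 and was called in 4 of 10 leave-one-out fits. Its chromatin change of −0.66 was called and its mRNA change of 0.32 was not. Off chromosome 9, 0 let-7 targets had a higher ratio (edgeR) and the median was −0.09. IGF2BP2 was called in 3 of 10 leave-one-out fits, and after removal of the GC trend its ratio change was −0.22 (adjusted p = 0.238). LIN28B, which blocks let-7 maturation, was called on chromatin (0.89) and not in mRNA-seq (0.24).

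In the microRNA pathway (13 members, median 0.31), AGO4 (0.63) was higher, in 2 of 10 leave-one-out fits, and DICER1 lower, in all 10. Over all members, 6.53% had a higher and 4% a lower ratio. Of 22 deadenylation and decapping genes (median −0.09), the deadenylase PAN2 was higher (0.72), and the CCR4-NOT subunits CNOT7 (−0.82) and CNOT2 (−0.59) were lower. CNOT2 was called in 3 of 10 leave-one-out fits. From protein-coding transcripts only, PAN2 (adjusted p = 0.0438) and CNOT2 (adjusted p = 0.0143) were not called. The mRNA of 11 of the 22 was called lower, and chromatin RNA of 7, against 21.7% and 13.2% of all members. Of 10 factors of nonsense-mediated decay (median 0.00), UPF3A was higher, at 1.24, with 13.1 and 32.5 CPM as mRNA means and 37.7 and 39.3 CPM on chromatin. UPF3A was not called from protein-coding transcripts only (1.59, adjusted p = 0.0326), which held 10.5% of its counts on wt chromatin.

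Ribosomal protein genes were called higher as mRNA in 20 of 77 and lower in 16, beside 24.5% and 21.7% of all members. On chromatin 3 were higher and 27 lower, beside 13% and 13.2% of all members. Of the 77 members, 10 had a higher ratio and 1 a lower one (RPS7, −0.92), beside 6.53% and 4% of all members. The medians were 0.30 for the ratio, 0.07 for mRNA and −0.27 for chromatin, and 68 of the 77 had a ratio change above 0. Chromosome 9 holds 4 of the 10, RPS6, RPL7A and RPL12 among them, and the other 73 members had a median of 0.28 with 6 higher. RPS6 had mRNA means of 2322 and 2218 CPM and chromatin means of 163 and 81.7 CPM. From protein-coding transcripts only, the list kept its median (0.33), but 2 genes were called higher, and RPL12 came to −0.01.

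Of 77 nuclear-encoded respiratory chain genes, 7 had a higher ratio and 0 a lower one (edgeR), beside 6.53% and 4% of all members. Their median was 0.12. NDUFA10, a complex I subunit, had 0.69 and UQCRC1, of complex III, 0.76. Of these 7, 1 was called from protein-coding transcripts only. None of the 13 mitochondrially encoded mRNAs was called by edgeR, and their median was −0.09. Of 20 genes of cholesterol synthesis and uptake, 2 were higher and 0 lower (edgeR), FDPS among them, and the median ratio was 0.33 at a median mRNA change of 0.60 and a median chromatin change of 0.03. The mRNA was called higher in 11 of them and lower in 0 (edgeR), against 24.5% and 21.7% of all members. FDPS, which makes farnesyl pyrophosphate, had 138 ± 6.03 and 265 ± 8.87 CPM in mRNA-seq and 79.1 ± 3.602 and 75.7 ± 8.83 CPM on chromatin. FDPS was not called from protein-coding transcripts only (adjusted p = 0.22).

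Splicing factor genes and non-coding transcripts lay on the lower side. Genes of SR proteins and hnRNPs, which bind pre-mRNA and steer splicing, had a median of −0.30. Of 38, 5 were lower and 1, HNRNPF, was higher, beside 4% and 6.53% of all members. SRSF10 (−0.93), SRSF7 (−0.77) and TRA2B (−0.77) were among those lower. Nuclear long non-coding RNAs had a median of −0.46, with 2 of 9 lower, beside 4% of all members. NEAT1, the scaffold RNA of paraspeckles, had 13.5, 13.3 and 18.8 CPM in wt and 50.1, 56.3 and 65.9 CPM in shDicer mRNA-seq, and 571 and 623 CPM in wt and 6136 and 6789 CPM in shDicer cells on chromatin. It rose in both assays without overlap, by 1.93 and 3.44, for a ratio change of −1.51 (SE 0.202, adjusted p = 0.000268). From protein-coding transcripts only, the splicing factor list had a median of −0.13 with 2 lower. CYTOR, at −1.39, shares 62.4% of its subsequences with other transcripts.

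MicroRNA host transcripts, which are cut by Drosha on chromatin, had a median of −0.72. Of 9, 4 were lower and 1 higher, beside 4% and 6.53% of all members. MIR17HG, the host of the miR-17 cluster shown above, had 213, 220 and 279 CPM in wt and 50.7, 54.2 and 62.4 CPM in shDicer mRNA-seq, and 167 and 182 CPM against 83.2 and 87.5 CPM on chromatin. It was lower in both assays without overlap, and the ratio change of −1.06 was called except without wt chrRNA-seq library 1 (−0.99). MIR4435-2HG and MIR99AHG rose in both assays, more on chromatin, with ratio changes of −1.27 and −1.14. DLEU2, the host of miR-15a and miR-16-1, had −0.93 at a chromatin change of 0.00.

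Of 21 immediate early genes (median −0.13), 3 had a lower ratio and 0 a higher one, beside 4% and 6.53% of all members. After removal of the GC trend, the median was −0.45. CCN1, a matricellular protein, had 14.1, 14.8 and 10.3 CPM in wt and 3.46, 4.95 and 6.10 CPM in shDicer mRNA-seq, but 8.13 and 8.67 CPM in wt and 13.0 and 15.2 CPM in shDicer cells on chromatin. The groups were apart in both assays and in opposite directions, the chromatin change of 0.75 was not called (adjusted p = 0.00738), and CCN1 had a ratio change of −2.17 (SE 0.278, adjusted p = 0.000194). CCN2, of the same family, had −3.13, from −0.79 in mRNA-seq and 2.33 on chromatin, and was below the mean level set for the other named genes. MYC had −1.21, with mRNA lower by 0.72. As background, CCN1, CCN2 and MYC encode short-lived mRNAs.

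Zinc finger genes named ZNF (402 members) had a median of −0.11, with 21 higher and 28 lower, against 6.53% and 4% of all members. ZNF506 and ZNF284 were higher by 2.24 and 1.82, and ZNF367, on chromosome 9, by 1.85. Of 22 ATF4 genes (median 0.22), SHMT2 was higher (0.74), and SLC7A11 and the mitochondrial folate enzyme MTHFD2 (−0.69) were lower. SHMT2 was called in 4 of 10 leave-one-out fits, and came to 0.44 (edgeR, adjusted p = 0.0198) after removal of the GC trend. With that trend removed, the list had a median of −0.01, with 0 higher and 5 lower (edgeR). Of 19 snoRNA host genes (median 0.01), SNHG7 and SNHG32 were higher and SNHG1 (−0.80) and GAS5 (−0.75) lower. SNHG7, on chromosome 9, and GAS5 were each called in 4 of 10 leave-one-out fits. Of 45 replication-dependent histone genes, H1-3 was lower (−0.95). Their median, 0.20, ranged from −0.47 to 0.84 over the 6 pairings and was −0.03 without library 1 of shDicer mRNA-seq.

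Of the genes the study followed up, 7 were members. Their mRNA was called higher in 6 and lower in 0 (edgeR), beside 24.5% and 21.7% of all members. Chromatin RNA was called higher in 5 and lower in 0 (edgeR), beside 13% and 13.2%. CDKN1B, which encodes the inhibitor p27, had a ratio change of 0.77 (SE 0.132, adjusted p = 0.00126), with mRNA at 35.4 ± 2.87 and 109 ± 1.98 CPM and chromatin RNA at 21.9 ± 0.893 and 39.7 ± 3.54 CPM. MET had −0.60, from 0.86 in mRNA-seq and 1.47 on chromatin, and was called in 2 of 10 leave-one-out fits. EGFR (0.20, SE 0.266), BCL2 (0.10, SE 0.235), GK (−0.34, SE 0.145), LINC00665 (0.19, SE 0.165) and ETNK1 (−0.52, SE 0.169) were not called for the ratio. ETNK1 served the paper as a negative control for nascent RNA. Of the reference genes GAPDH, HPRT1, ACTB and TBP, none was called by edgeR, and their ratio changes were 0.52, −0.27, −0.89 and 0.60.

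The transcripts counted differed between the assays. In protein-coding members, 87.7 to 89.1% of counts lay on protein-coding transcripts in mRNA-seq and 64.9 to 67.3% in chrRNA-seq, and transcripts with retained introns took 4.41 to 5.17% and 19.2 to 20.8%. When protein-coding transcripts alone were summed, 10662 genes were tested and 396 had a higher and 243 a lower ratio. Of the 1344 called genes, 594 were called again. TMBIM1, MEIOC, PRSS12, SLC7A11, DICER1, CDKN1A and EPHA3 were among them, at 4.29, 3.14, 2.95, −1.58, −1.31, 1.64 and −2.01.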

How the data were processed

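Reads were assigned by the authors with kallisto to the coding and non-coding transcripts of Ensembl, using strand. The estimated counts and TPM per transcript were deposited by the authors without normalization across samples. Estimated counts were summed per gene through GENCODE release 44 (89.2% of 217082 transcripts matched) and rounded. Deposited TPM values were used in 1 alternative only. edgeR 4.0.16 (R 4.3.3) fitted a quasi-likelihood model to 10 libraries with a term per group and TMM factors. These were 0.784 to 0.831 in mRNA-seq and 1.36 to 1.40 in chrRNA-seq. Contrasts were the mRNA, chromatin and ratio changes, with Benjamini-Hochberg adjustment over 12763 genes and calls at an adjusted p under 0.005. The biological coefficient of variation was 0.0888. The procedure was tested on simulated data. Small RNA-seq and other knockdown libraries were left out, apart from named exceptions.

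Members and gene lists were chosen with earlier results of these data known. Besides list members and genes of the study, genes were named by size of change among those called, with mean log2 CPM no lower than 3, under 50% shared 31-nt subsequences and a symbol. These were 6 at each end of the mRNA-beyond-chromatin class, 6 at each end with chromatin within 0.25 of 0, and 3 at each end with flat mRNA or opposite moves. From each list, up to 4 genes with the smallest p were considered. Values of 1 named gene are not reported here.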

Additional observations from a re-analysis of the deposited data

Results flagged for a closer look

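Of the well-measured genes with called changes in opposite directions (23 with mRNA up and 16 with mRNA down), the 6 named by size are given here. They were chosen on those calls, so their ratio changes are a description and no separate test. IDNK (ratio change 2.40, SE 0.206), ZNF503-AS2 (2.26, SE 0.235) and SUSD1 (1.87, SE 0.157) rose in mRNA-seq and fell on chromatin. IDNK and SUSD1 lie on chromosome 9, where the median ratio change was 0.56. ZNF8-DT (−3.47, SE 0.227), RNVU1-34 (−2.53, SE 0.310) and LINC02985 (−1.90, SE 0.235) fell in mRNA-seq and rose on chromatin. RNVU1-34 overlaps TEX14 on its own strand, and reads of both cannot be told apart where they overlap. All 6 kept their call without any 1 library.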

How the results depend on the processing

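Counts are given as genes with a higher and a lower ratio, then those with mRNA beyond chromatin, then those where chromatin moved and mRNA followed less. Only values that moved by over 1.5 times are listed, and the cause was not tested. With counts scaled from TPM, 286 and 218 genes were called, with 236 and 179, and 42 and 38, in the classes. From protein-coding transcripts only (chosen after seeing the data, fewer genes tested), these were 396 and 243, 318 and 195, and 71 and 47. Without a low-count filter, 191 were lower, 163 lower beyond chromatin, and 83 and 28 in the last class. DESeq2 gave 1016 lower, 838 lower beyond chromatin and 149 lower in the last class. A fit of all 14 libraries gave 1063, 848 and 186, and moved the median of all genes by −0.11. Removal of the GC and length trend gave 805 lower, with 205 and 175 in the last class. At an adjusted p under 0.05, the counts were 2243 and 1539, 1707 and 1204, and 489 and 314. At 0.001 they were 324 and 190, 282 and 155, and 39 and 31. With a change above 1 required as well, they were 416 and 174, 374 and 121, and 34 and 51. Off chromosome 9 (chosen after seeing the data), the last class had 89 higher. Of calls, 62.1% were higher, against 45.4% with the size factors of DESeq2, 45.6% in DESeq2, 42.4% with 14 libraries and 76.5% without a filter.

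Same-numbered libraries had correlations of their deviations of 0.077, 0.061 and 0.198 in mRNA-seq and 0.271 in chrRNA-seq, so the numbers were not taken as pairs. With the replicate block, 1166 genes were higher and 657 lower, with 232 higher in the last class. The replicate block with the GC and length trend removed gave 1288 and 1004, 767 lower beyond chromatin, and 273 and 221 in the last class.

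Leaving out 1 library at a time, the counts ranged from 255 to 1166 higher and from 138 to 616 lower, from 230 to 892 and from 115 to 480 beyond chromatin, and from 24 to 245 and from 22 to 121 in the last class. The fewest calls came without replicate 1 of wt chrRNA-seq and the most without replicate 1 of shDicer mRNA-seq. Of 81 named and called genes, 43 were called in all 10 of these fits. The miR-17 site difference ranged from 0.076 to 0.121. It was −0.011 for the 7-base match, −0.002 for matches not after CCCA (chosen after seeing the data), 0.44 in short UTRs and 0.16 in middle ones. Among named genes, PAN2 turned to −0.036 with counts scaled from TPM and RPL12 to −0.012 from protein-coding transcripts only. With 2 chrRNA-seq libraries per group, single chromatin libraries limit these calls most.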

Other observations

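Chromosome 9 was also read in the chrRNA-seq libraries of other knockdowns, which above entered only the fit of 14 libraries. Relative to the other chromosomes and to wt chrRNA-seq, the 2 shAgo2 libraries stood at −0.32 and −0.32 and the 2 shDrosha libraries at −0.02 and −0.01 on the log2 scale, beside −0.26 and −0.28 in shDicer. The 3 knockdowns share the wt libraries. Per the labels, shDicer and shAgo2 came from inducible lines under 3 µg/ml doxycycline for 72 h, and shDrosha from transfection of a plasmid. The shDicer and shAgo2 libraries were thus lower on chromosome 9 than the wt and shDrosha libraries, and line and doxycycline cannot be told apart in this.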
